A study of Homo sapiens with 6 samples.

Results

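Chaperones of the endoplasmic reticulum (ER) and of the heat shock response were examined in NK-92 cells with reduced miR155HG. NK-92 is a human natural killer cell line from a lymphoma that depends on IL-2 for growth. The members were 36 genes chosen by symbol, 23 of the ER and its stress response and 13 of the cytosol and heat shock response, out of 36601 genes in the count table. All 36 were present in the table and all 36 passed the filter on low values, which kept the 12263 genes above 1 CPM in 2 libraries or more. CPM is the count of a gene scaled to 1e+06 counts in its library. Of the 13 heat shock members, HSPD1 and HSPE1 work in mitochondria and HSF1 is a transcription factor, so the strictly cytosolic chaperones and co-chaperones numbered 10.

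Cells carrying a control short hairpin RNA (shCtrl, 3 libraries) were compared with cells carrying a hairpin against miR155HG (shmiR155HG, 3 libraries). The cells of both groups were stable NK-92 lines that were stimulated with IL-2 at 1000 U/mL and IL-12 at 10 ng/mL for 12 h before poly(A) RNA was sequenced, so no unstimulated cells entered the comparison. The titles put 3 libraries in each group, while the treatment entries of shmiR155HG replicates 2 and 3 carry other gene numbers in the hairpin name, and the titles were followed. The labels do not say whether the libraries came from separate cultures or transductions, so p-values measure only the spread between these libraries, which may be technical.

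Total counts ranged from 33454786 to 39157264 per library. MIR155HG, the host transcript that the hairpin targets, had 73, 67 and 62 counts in the shCtrl libraries and 28, 19 and 10 in those of shmiR155HG. Its log2 fold change was -1.78 with an SE of 0.43 (edgeR quasi-likelihood test, adjusted p = 0.0045). MIR155HG lay near the floor of the filter, at 1.59 to 1.88 CPM in shCtrl and 0.299 to 0.730 CPM in shmiR155HG. It passed the filter only through the shCtrl libraries, so this test is not independent of the filter. Natural killer markers were present apart from CD7, which reached at most 0.877 CPM, and their summed level was 4701 to 4720 CPM in shCtrl against 4348 to 4507 CPM in shmiR155HG, a list that holds GZMB. Of the 7 T cell markers, CD3E (327 to 340 CPM) and TRAC (68.1 to 78.0 CPM) were expressed while CD3D, CD3G, CD4, CD8A and CD8B stayed under 1 CPM, and the summed level of the list overlapped between groups. The summed markers of B cells, of red cells and platelets and of epithelial cells were at most 2.23, 0.0598 and 0.604 CPM, and those of monocytes, with CSF1R and CD68 leading, were 13.0 to 14.6 CPM in shCtrl and 8.79 to 13.1 CPM in shmiR155HG. The share of counts from mitochondrially encoded genes was 2.13% to 2.18% in shCtrl and 2.35% to 2.48% in shmiR155HG, without overlap, and its part in the results that follow was not tested. In bulk RNA, fewer cells of a type and less RNA per cell cannot be told apart.

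Proteins that enter the ER are folded by HSP70 and HSP90 family chaperones, by lectins that hold glycoproteins and by isomerases that form disulfide bonds. When unfolded proteins accumulate, the sensors IRE1 (gene ERN1), PERK (EIF2AK3) and ATF6 set off the unfolded protein response, in which IRE1 splices the XBP1 transcript and the encoded factor turns on chaperone and degradation genes. In the cytosol, HSF1 turns on HSP70, HSP90 and J protein genes through heat shock elements. Natural killer cells load their granules with secreted effector proteins that pass through the ER. In work on dendritic cells that the paper cites, the micropeptide encoded by MIR155HG was found to bind HSC70, the product of HSPA8. In NK cells, the paper reports that the micropeptide did not undo the fall of JAK3 after silencing. By its account the micropeptide also left molecules of proliferation and effector function unchanged.

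The promoters of the members carry known elements of both responses. The stretches printed here are those of the 6 members with the largest absolute log2 fold changes among the members that passed the test and held an ER stress response element or a heat shock element. They were read from RefSeq windows (GRCh38.p14) that span 250 bases before to 50 bases after an annotated start, and capitals mark the element. The ER stress response element was searched as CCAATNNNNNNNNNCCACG and the heat shock element as GAANNTTCNNGAA, each on both strands. The stretch of XBP1 is chr22:28800598-28800626 on the minus strand, that of PDIA6 chr2:10812848-10812876 on the minus strand and that of CANX chr5:179698773-179698801 on the plus strand. The stretch of CRELD2 is chr22:49918534-49918592 on the plus strand, where the element reads on the opposite strand. The stretches with a heat shock element are chr14:102087100-102087152 on the minus strand for HSP90AA1 and chr2:197500065-197500090 on the minus strand for HSPD1, where overlapping matches run together.
XBP1: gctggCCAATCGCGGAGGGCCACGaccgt
PDIA6: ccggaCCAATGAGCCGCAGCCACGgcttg
CANX: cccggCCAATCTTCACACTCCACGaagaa
CRELD2: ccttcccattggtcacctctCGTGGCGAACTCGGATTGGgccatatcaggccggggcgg
HSP90AA1: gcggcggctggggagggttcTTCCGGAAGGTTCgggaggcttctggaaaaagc
HSPD1: gcattTTCTGGAAAGTTCTGGAAccg

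An entry was found for 34 of the 36 members. PDIA3 and HSF1 were not matched in the table used here. The ER stress response element was present in windows of 25 of 27305 genes (0.0916%), and 7 of these were members, all of the ER group: XBP1, PDIA6, CANX, CALR, CRELD2, HSP90B1 and HSPA5. These 7 did not move together, since XBP1, PDIA6, CANX and CALR fell, CRELD2 rose, and HSPA5 and HSP90B1 did not pass the test. The second form of the element (ATTGG, any 1 base, then CCACG) was present in 19 of the 27305 genes (0.0696%), with HERPUD1, HYOU1 and SDF2L1 among them, and none of these 3 passed the test. The UPR element TGACGTGG was found in 253 genes (0.927%) and among members only in HYOU1, where it overlaps the second form. The heat shock element was present in 166 genes (0.608%), with 5 members, all of the heat shock group: HSP90AA1 and HSPD1 fell, HSPA8 rose, and HSP90AB1 and DNAJA1 did not pass the test. A match is a description of these letters and not a measured binding site, and a window without a match says only that these letters are not in it.

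The levels of the members spanned about 3 orders of magnitude when given per length of the canonical transcript. In the shCtrl libraries HSPA8 was highest with a mean of 1397 CPM per kb, followed by HSP90AB1 with 1331 and HSP90AA1 with 848 CPM per kb. CALR, a calcium-binding lectin, was the highest ER member with 794 CPM per kb, ahead of HSPA5 (387 CPM per kb) and HSP90B1 (379 CPM per kb). The lowest members were ERN1 with 1.37, BAG3 with 1.35 and HSPA1A with 1.04 CPM per kb. The constitutive HSP70 of the cytosol was therefore far above its inducible relatives, HSPA1B reaching 1.75 CPM per kb. In shmiR155HG the first 2 places were again held by HSPA8 and HSP90AB1, while CALR (728 CPM per kb) stood above HSP90AA1 (716 CPM per kb).

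**Figure D1:**
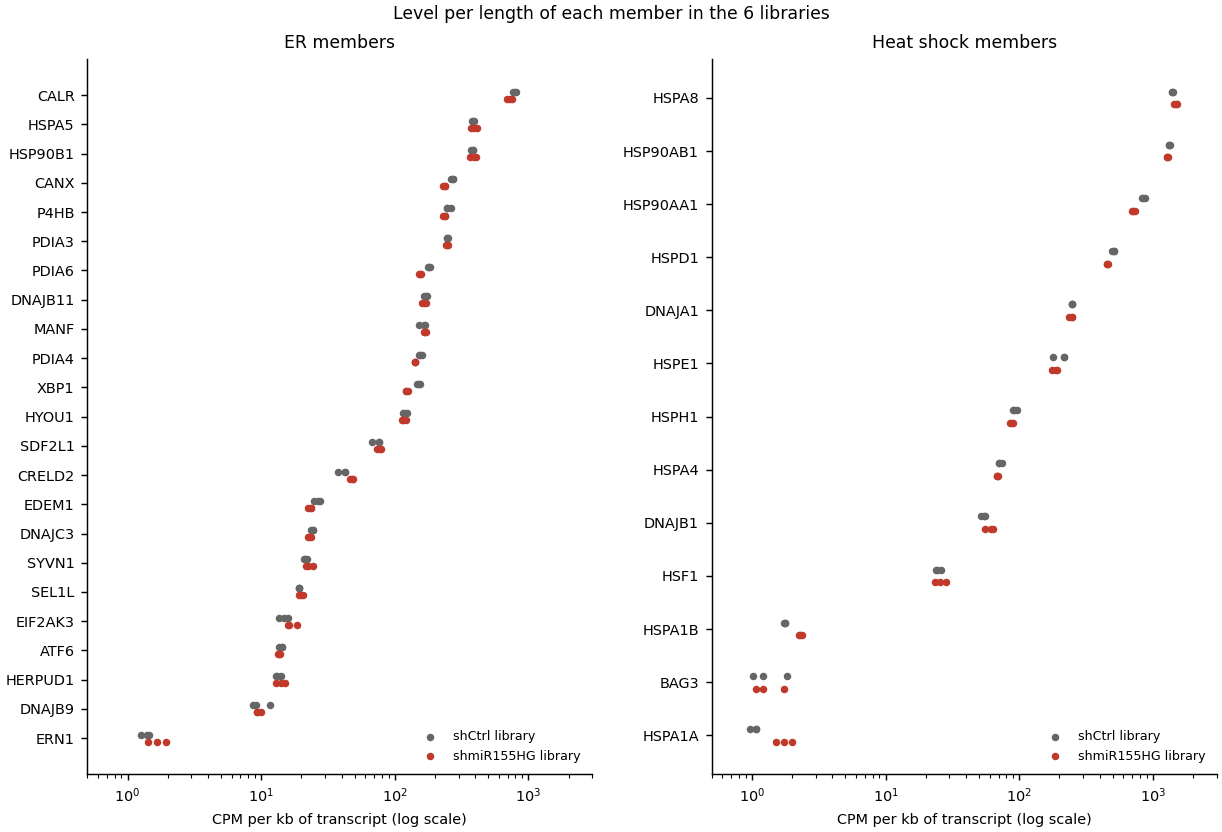
Level of each member in CPM per kb of canonical transcript on a log axis, with ER members on the left and heat shock members on the right; each point is 1 library, grey for shCtrl and red for shmiR155HG. HSPA8 and HSP90AB1 lie above 1000 CPM per kb in all 6 libraries, and ERN1, BAG3, HSPA1A and HSPA1B lie lowest.

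Among the 23 ER members, 6 fell and 1 rose in shmiR155HG, and 16 did not pass the test. Those that fell were XBP1, PDIA6, CANX, EDEM1, PDIA4 and CALR, and the member that rose was CRELD2. Over all 12263 genes tested, 8.02% passed the test (adjusted p under 0.05) as lower and 7.26% as higher, while 26.1% of ER members were lower and 4.35% higher. The groups did not overlap for 9 of the 23 ER members (39.1%), against 30.8% of all genes. Among genes that averaged 100 CPM or more, these shares were closer, at 50% of ER members and 44.9% of all genes. The median log2 fold change was -0.03 over the ER members and 0.00097 over all genes, so the 6 that fell did not carry the whole group with them. Small changes pass the test more often in abundant genes: of the 2664 genes that averaged 100 CPM or more, 16.4% were lower and 12.8% higher, and of the 16 ER members at that level 6 were lower (37.5%) and 0 higher, a count that stayed 0 at an unadjusted p under 0.05 and with DESeq2 and limma-voom. The rule of the study is an edgeR exact test that asks for P under 0.01 without adjustment and for more than a 1.2-fold change. As applied here, it called 3.8% of all genes lower and 4.49% higher, and of the ER members only XBP1. The paper reports more genes each way, and the reason was not tested.

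Among the 13 heat shock members, 3 rose, 2 fell and 8 did not pass the test. HSPA1A, DNAJB1 and HSPA8 rose, and HSP90AA1 and the mitochondrial HSPD1 fell. These are shares of 23.1% higher and 15.4% lower, against 7.26% and 8.02% of all genes. The groups did not overlap for 8 of the 13 (61.5%, against 30.8%), and the median log2 fold change was -0.02. Of the 10 strictly cytosolic members, 3 rose and 1 fell. Of the members that averaged 100 CPM or more, 2 of 9 heat shock members were higher and 2 lower. This is 22.2% each way, against 12.8% higher and 16.4% lower for all genes at that level. The groups did not overlap for 66.7% of these members, against 44.9% of all genes at that level. By the rule of the study only HSPA1A was called higher, and none of the 13 lower, where the main test called 2 and an unadjusted p under 0.05 gave 4.

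**Figure D2:**
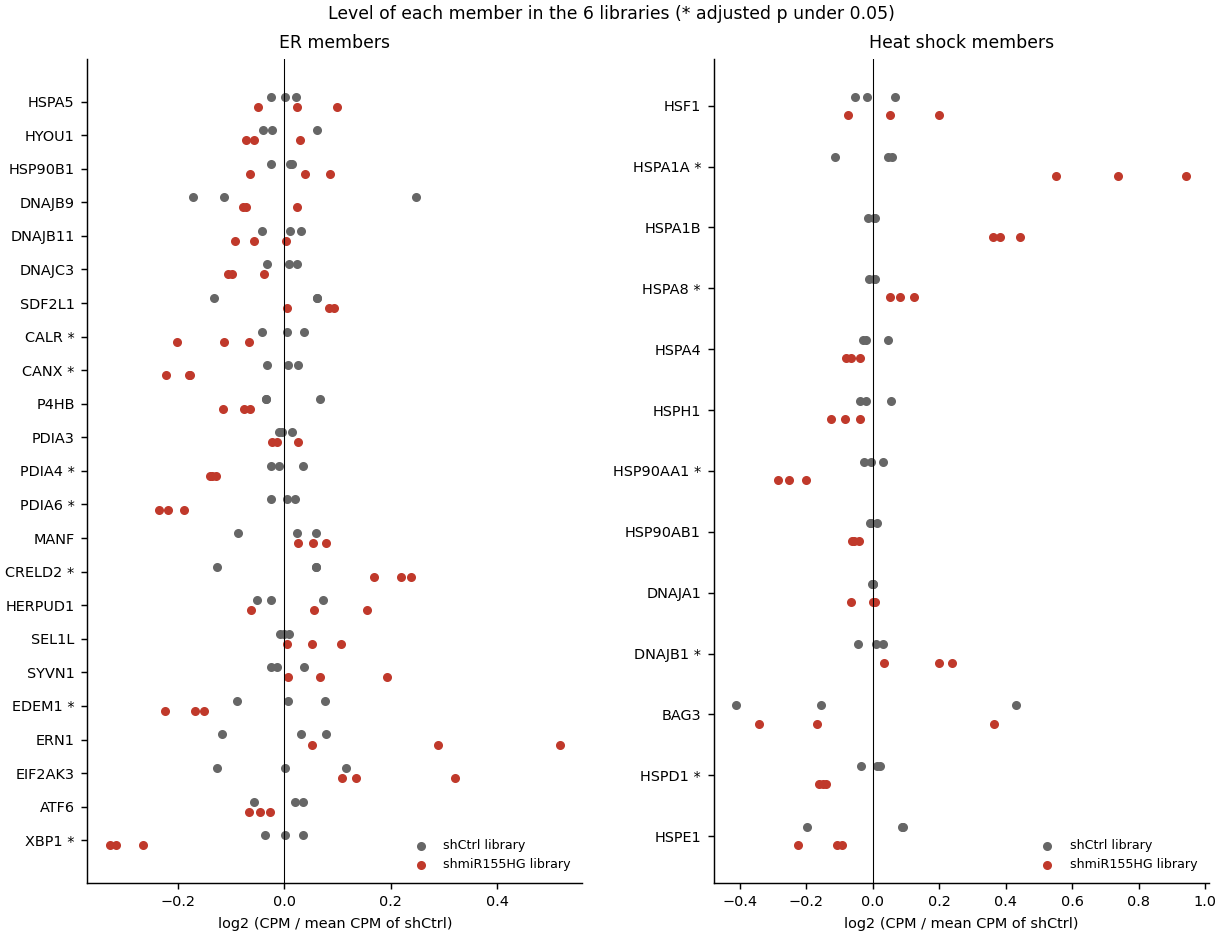
Level of each member in each library as log2 of its CPM over the mean CPM of the shCtrl libraries, with ER members on the left and heat shock members on the right; points are libraries, grey for shCtrl and red for shmiR155HG, and a star marks an adjusted p under 0.05. The red points of XBP1, PDIA6, CANX, PDIA4 and HSP90AA1 lie left of every grey point, those of HSPA5 and HSP90B1 straddle the grey points, and those of HSPA1A lie to the right.

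Of the 3 sensors of the unfolded protein response and their effector XBP1, only XBP1 passed the test. XBP1 (chromosome 22, 28794555 to 28800597, minus strand, 6 exons), the transcription factor made from the transcript that IRE1 splices, stood at 278, 265 and 272 CPM in the shCtrl libraries and at 226, 217 and 218 CPM in the shmiR155HG libraries. All 3 shmiR155HG libraries were below all 3 shCtrl libraries. The log2 fold change of XBP1 was -0.30 (SE 0.037, 95% CI -0.38 to -0.23, edgeR quasi-likelihood adjusted p = 1.03e-06), a level 0.81 times that of shCtrl. XBP1 had the largest fall of the 36 members, and it passed the test under all 18 alternative settings. Gene counts do not separate spliced from unspliced XBP1 transcripts, so the amount of the active form was not measured.

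ERN1, which encodes the kinase and nuclease IRE1, had 11.03, 9.95 and 11.4 CPM in shCtrl and 11.2, 15.4 and 13.2 CPM in shmiR155HG. The groups overlapped, and the difference of 0.30 (SE 0.14) did not pass the test (adjusted p = 0.168). EIF2AK3, which encodes the sensor kinase PERK, had 61.4, 67.1 and 72.6 CPM in shCtrl and 83.7, 73.6 and 72.2 CPM in shmiR155HG. Its log2 fold change of 0.19 (SE 0.068) was just outside the threshold (adjusted p = 0.0568), and the lowest shmiR155HG library was below the highest shCtrl library. The annotated gene overlaps the divergent transcript EIF2AK3-DT, which had 102, 106 and 101 counts against 196, 194 and 87. ATF6, the sensor that is cleaved in the Golgi, had means of 105 and 102 CPM, a log2 fold change of -0.05 (95% CI -0.15 to 0.06). The ratio of XBP1 to ATF6 CPM was 2.49 to 2.76 in shCtrl and 2.13 to 2.19 in shmiR155HG.

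The main HSP70 and HSP90 of the ER showed no detectable change. HSPA5, which encodes BiP and is the usual marker of the unfolded protein response, had 1520, 1492 and 1541 CPM in shCtrl and 1626, 1543 and 1466 CPM in shmiR155HG. The shCtrl values lay inside the range of the shmiR155HG values. The log2 fold change of HSPA5 was 0.03 with a 95% confidence interval of -0.04 to 0.09 (adjusted p = 0.67). HSP90B1, which encodes GRP94, had a log2 fold change of 0.02 (95% CI -0.05 to 0.09) at means of 1056 and 1072 CPM, and its ratio to HSPA5 overlapped between groups (0.673 to 0.713 against 0.689 to 0.703). HYOU1, a nucleotide exchange factor for BiP, had a log2 fold change of -0.03 (95% CI -0.10 to 0.04). The intervals of these 3 genes leave room only for changes of about 0.1 on the log2 scale.

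None of the 4 ER co-chaperones passed the test, nor did any at an unadjusted p under 0.05 or with DESeq2 or limma-voom. DNAJC3, a J protein that also holds back PERK, came nearest, with 132, 136 and 138 CPM in shCtrl and 126, 132 and 127 CPM in shmiR155HG, without overlap, and a log2 fold change of -0.08 (adjusted p = 0.251). DNAJB11, a J protein that delivers clients to BiP, had a log2 fold change of -0.05, and SDF2L1, which works with it, of 0.06. DNAJB9, a J protein and an IRE1 regulator, had -0.04, with a coefficient of variation of 16.4% in shCtrl that was the widest of the ER members in that group.

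Both lectin chaperones fell. CANX (chromosome 5, 179678628 to 179731641, plus strand), the membrane-bound calnexin that retains newly made glycoproteins, had 1331, 1348 and 1295 CPM in shCtrl and 1172, 1170 and 1136 CPM in shmiR155HG. The groups were apart by more than the range within either of them, and the log2 fold change was -0.19 (SE 0.029 and adjusted p = 2.92e-05), a level 0.875 times that of shCtrl. CALR, its soluble relative calreticulin, had 1514, 1466 and 1548 CPM against 1442, 1395 and 1313 CPM. The log2 fold change of CALR was -0.13 (SE 0.033 and adjusted p = 0.0083), and it did not pass the test without shmiR155HG replicate 3, its lowest library (log2 fold change -0.09, adjusted p = 0.115). The ratio of CANX to CALR overlapped between groups (0.837 to 0.919 against 0.813 to 0.865).

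The disulfide isomerases divided into members that fell and members that did not pass the test. PDIA6 (chromosome 2, 10783391 to 10837977, minus strand), an isomerase that also binds BiP and IRE1, had 415, 403 and 411 CPM in shCtrl and 359, 348 and 352 CPM in shmiR155HG. Its groups were far apart compared with their ranges, with a log2 fold change of -0.21 (SE 0.033 and adjusted p = 3.59e-05). PDIA4, an isomerase with an added thioredoxin domain, had 426, 422 and 439 CPM against 390, 393 and 389 CPM, a log2 fold change of -0.13 (SE 0.033 and adjusted p = 0.005). P4HB, the founding protein disulfide isomerase, had 595, 594 and 638 CPM against 582, 562 and 578 CPM, and this difference of -0.08 without overlap did not pass the test (adjusted p = 0.0926). PDIA3, the isomerase that partners calnexin and calreticulin, was nearly level at means of 907 and 905 CPM, with a 95% confidence interval of -0.06 to 0.06. The ratio of PDIA6 to PDIA3, which needs no scaling between libraries, was 0.447 to 0.455 in shCtrl and 0.389 to 0.392 in shmiR155HG.

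CRELD2, a secreted factor induced by ER stress, was the only ER member that rose. It had 60.9, 53.5 and 60.9 CPM in shCtrl and 65.7, 68.1 and 69.0 CPM in shmiR155HG. The groups did not overlap, and the log2 fold change was 0.21 (SE 0.065 and adjusted p = 0.0277). The call for CRELD2 was lost without shCtrl replicate 2, the lowest library (log2 fold change 0.15, adjusted p = 0.175). It was also lost without shmiR155HG replicate 2, without shmiR155HG replicate 3 and after a correction for GC content (adjusted p = 0.104). The gene overlaps ALG12 on the opposite strand, which had 973 to 1230 counts per library. Reads from overlapping genes can be told apart only where strand is used, which is not given in the sources used here. MANF, another secreted protein of this kind, had a log2 fold change of 0.05 (95% CI -0.04 to 0.14).

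Of the 4 members of ER-associated degradation, which returns misfolded proteins to the cytosol, EDEM1 fell. EDEM1, a mannosidase-like protein that marks misfolded glycoproteins, had 151, 162 and 169 CPM in shCtrl and 138, 145 and 143 CPM in shmiR155HG. The log2 fold change of EDEM1 was -0.18 (SE 0.046 and adjusted p = 0.0066), and without shmiR155HG replicate 1 it missed the threshold (adjusted p = 0.0537). HERPUD1, SEL1L and SYVN1, which belong to the HRD1 ubiquitin ligase complex, had log2 fold changes of 0.05, 0.06 and 0.09, all with intervals that include 0. SYVN1, the ligase itself, overlaps FAU on the same strand and MRPL49 on the opposite strand, and its values are uncertain for that reason.

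**Figure D3:**
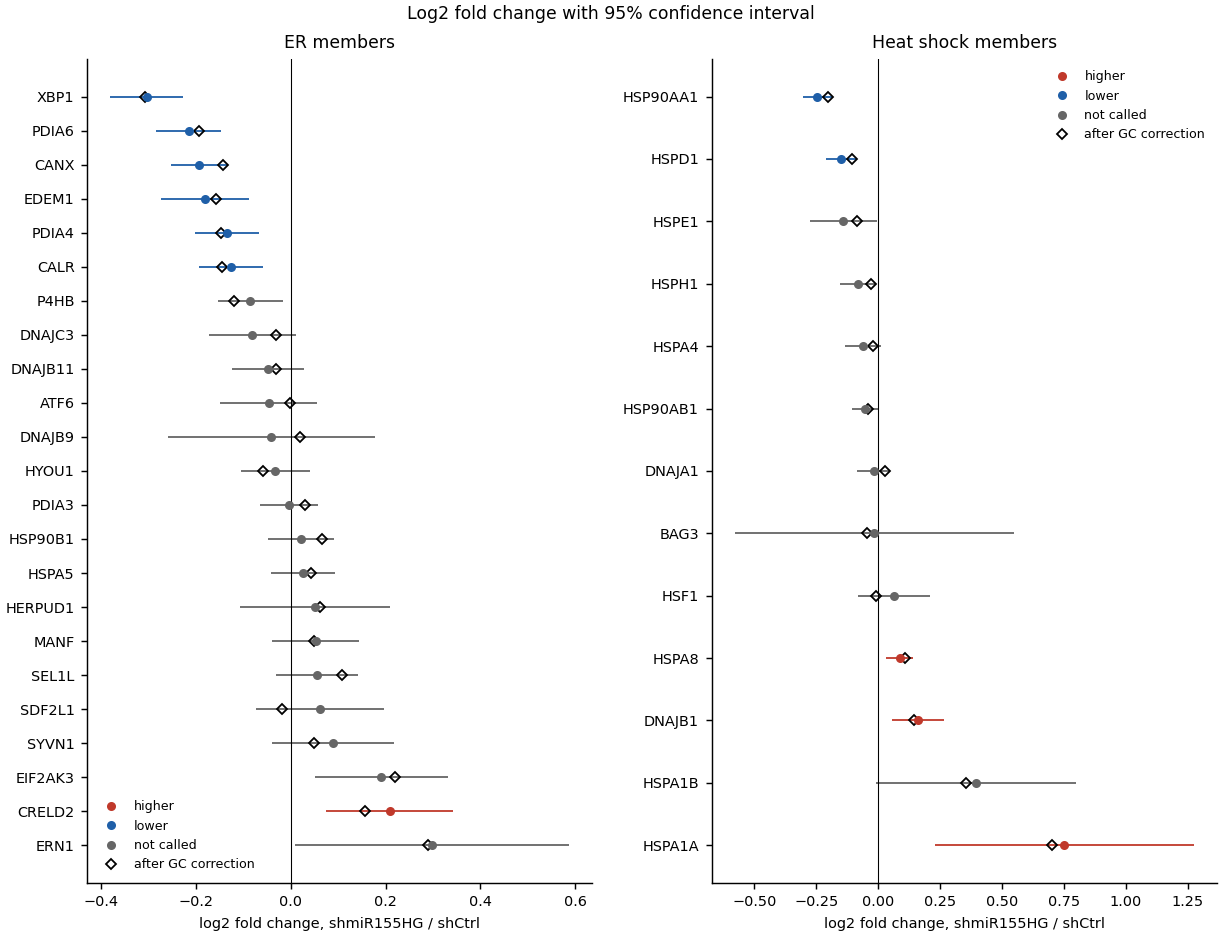
Log2 fold change of shmiR155HG over shCtrl with its 95% confidence interval (edgeR quasi-likelihood test) for ER members on the left and heat shock members on the right; red marks higher, blue lower and grey not called, and open diamonds give the value after a correction for GC content. The bars of XBP1, PDIA6, CANX, EDEM1, PDIA4, CALR, HSP90AA1 and HSPD1 lie below 0, and those of HSPA1A, HSPA1B and BAG3 are the widest.

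In the cytosol the HSP90 pair had unequal changes. HSP90AA1 (chromosome 14, 102080742 to 102139699, minus strand), the stress-inducible HSP90, had 2797, 2731 and 2689 CPM in shCtrl and 2381, 2302 and 2249 CPM in shmiR155HG. Every shmiR155HG library was below every shCtrl library, and the log2 fold change was -0.25 (SE 0.029 and adjusted p = 4.28e-07), a level 0.844 times that of shCtrl. HSP90AB1, the constitutive HSP90, had 3431, 3382 and 3390 CPM against 3307, 3255 and 3273 CPM, which did not overlap but gave a log2 fold change of only -0.05 (95% CI -0.11 to 0.00052, adjusted p = 0.189). The ratio of HSP90AA1 to HSP90AB1 was 0.793 to 0.815 in shCtrl and 0.687 to 0.72 in shmiR155HG, which does not depend on the scaling. An exact two-sided permutation test of single values over 3 against 3 libraries cannot go below p = 0.1. This smallest value was reached by the 17 members without overlap (47.2%, against 30.8% of all genes). Abundant genes lack overlap more often: at an average of 100 CPM or more, it was 56% of members and 44.9% of all genes.

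The 3 members that encode HSP70 of the cytosol had higher values in each shmiR155HG library than in any shCtrl library. HSPA8, which encodes HSC70, had 3137, 3180 and 3172 CPM in shCtrl and 3447, 3280 and 3348 CPM in shmiR155HG. The log2 fold change of HSPA8 was small, 0.09 (SE 0.027 and adjusted p = 0.0295), and it rested on shmiR155HG replicate 1, without which the adjusted p was 0.151. The call was lost as well without shCtrl replicate 1, shCtrl replicate 2 or shmiR155HG replicate 3.

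HSPA1A (chromosome 6, 31815543 to 31817946, plus strand, 1 exon), an HSP70 induced by heat and other stress, had 100, 84 and 101 counts in shCtrl and 140, 158 and 160 counts in shmiR155HG. As CPM these were 2.57, 2.30 and 2.59 against 3.65, 4.15 and 4.78. The log2 fold change of 0.75 was the largest rise of the members (SE 0.25 and adjusted p = 0.0442), yet the call did not survive leaving out any single library, with adjusted p up to 0.167. HSPA1B, a near-identical neighbour, had 4.42, 4.36 and 4.41 CPM against 5.73, 5.65 and 5.98 CPM. Its log2 fold change of 0.40 (SE 0.20) did not pass the test (adjusted p = 0.195). Reads that match both paralogs cannot be assigned with certainty, so the split between them is uncertain.

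HSPA4 and HSPH1, the HSP110 exchange factors of HSP70, had log2 fold changes of -0.06 and -0.08 and did not pass the test (adjusted p = 0.279 and 0.122). DNAJB1, the main J protein partner of inducible HSP70, had 123, 117 and 122 CPM in shCtrl and 142, 138 and 124 CPM in shmiR155HG. The lowest shmiR155HG library was only slightly above the highest shCtrl library, and the log2 fold change was 0.16 (SE 0.051 and adjusted p = 0.0301). DNAJB1 lost its call without shmiR155HG replicate 1 (adjusted p = 0.189), without shmiR155HG replicate 2 and without shCtrl replicate 2, and it overlaps TECR on the opposite strand (2728 to 3096 counts). DNAJA1, a farnesylated J protein, was level at means of 573 and 565 CPM (95% CI -0.08 to 0.05). BAG3, an HSF1 target that guides clients to autophagy, varied too much to read, with a coefficient of variation of 31.1% in shCtrl and a 95% confidence interval of -0.58 to 0.55. HSF1 itself had means of 52.7 and 55.1 CPM (95% CI -0.08 to 0.21).

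The mitochondrial chaperonin genes HSPD1 and HSPE1 share a bidirectional promoter. HSPD1, which encodes HSP60, had 1144, 1151 and 1108 CPM in shCtrl and 1029, 1015 and 1023 CPM in shmiR155HG. The groups did not overlap, and the log2 fold change was -0.15 (SE 0.029 and adjusted p = 0.00057). HSPE1, which encodes its lid HSP10, had 121, 121 and 99.5 CPM against 97.7, 106 and 107 CPM, with a log2 fold change of -0.14 that did not pass the test (SE 0.065 and adjusted p = 0.165). The value for HSPE1 turned on shCtrl replicate 3, without which it was -0.23 (adjusted p = 0.0038). It shrank to between -0.10 and -0.09 without shCtrl replicate 1, shCtrl replicate 2 or shmiR155HG replicate 1 (adjusted p up to 0.468). The ratio of HSPD1 to HSPE1 overlapped between groups (9.42 to 11.1 against 9.56 to 10.5). The annotated HSPE1 overlaps HSPD1 on the opposite strand, which had 34220 to 44522 counts per library. The values of HSPE1 and this ratio are uncertain for that reason.

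Summed over members, the ER group made up 9796 to 9956 CPM in shCtrl and 9192 to 9699 CPM in shmiR155HG, 95.5% of the shCtrl mean. The heat shock group made up 12036 to 12231 CPM against 11494 to 11844 CPM, or 95.8%. Both sums were lower in all 3 shmiR155HG libraries than in any shCtrl library. The difference in the heat shock sum rested on HSP90AA1, without which the sums overlapped (9347 to 9434 CPM against 9192 to 9463 CPM, 99.2% of the shCtrl mean). The ER sum likewise overlapped without CANX (8448 to 8662 CPM against 8056 to 8527 CPM, 96.8%). Leaving out the most abundant gene of each group, which did not pass the test, kept them apart (94.4% without HSPA5 and 95.6% without HSP90AB1). Within the groups of libraries the members varied little, with a median coefficient of variation of 2.71% for ER members and 2.74% for heat shock members in shCtrl, and 3.37% and 2.98% in shmiR155HG.

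**Figure D4:**
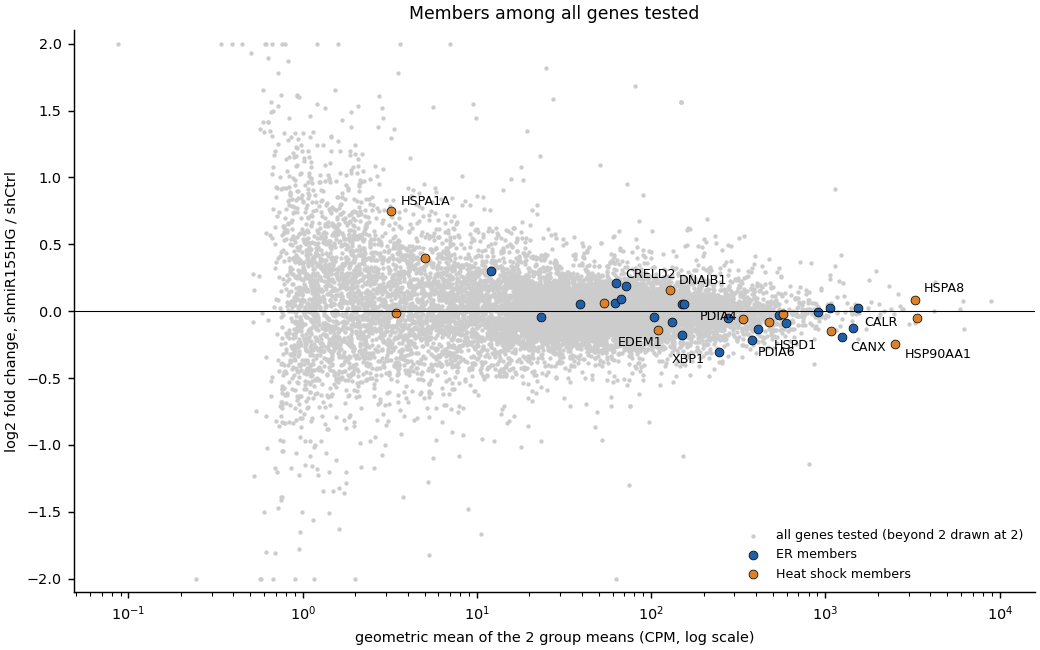
Log2 fold change against the geometric mean of the group means in CPM (log axis) for the 12263 genes tested (light grey) with ER members in blue and heat shock members in orange; called members are named. Members that fell lie above 100 CPM, with XBP1 lowest at -0.30, and HSPA1A stands apart at 0.75 near 3 CPM.

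Log2 fold changes over all genes moved with the GC content of the transcript, with a Spearman correlation of 0.249 across 12216 genes, given as a description because genes share libraries. The median log2 fold change was -0.05 in genes around 39.5% GC and 0.08 in genes around 63.5% GC. CANX (39.9% GC), HSP90AA1 (41.6%) and HSPD1 (41.7%), which fell, have transcripts of low GC content, and CRELD2 (60.7%) and HSPA1A (59.8%), which rose, of high GC content. XBP1 (49.5%), PDIA4 (51.9%) and CALR (53.8%) fell at a GC content where the median of all genes was at or above 0. After a correction per library for GC content, chosen after seeing the data, 7 ER members were lower and 1 higher, and 2 heat shock members were lower and 2 higher. CRELD2 and HSPA1A lost their calls (adjusted p = 0.104 and 0.0645), while P4HB became lower (-0.12, adjusted p = 0.0088) and EIF2AK3 higher (0.22, adjusted p = 0.0255). XBP1 stayed at -0.31, HSP90AA1 at -0.20, PDIA6 at -0.19, CANX at -0.14 and HSPA8 at 0.11, all past the threshold.

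**Figure D5:**
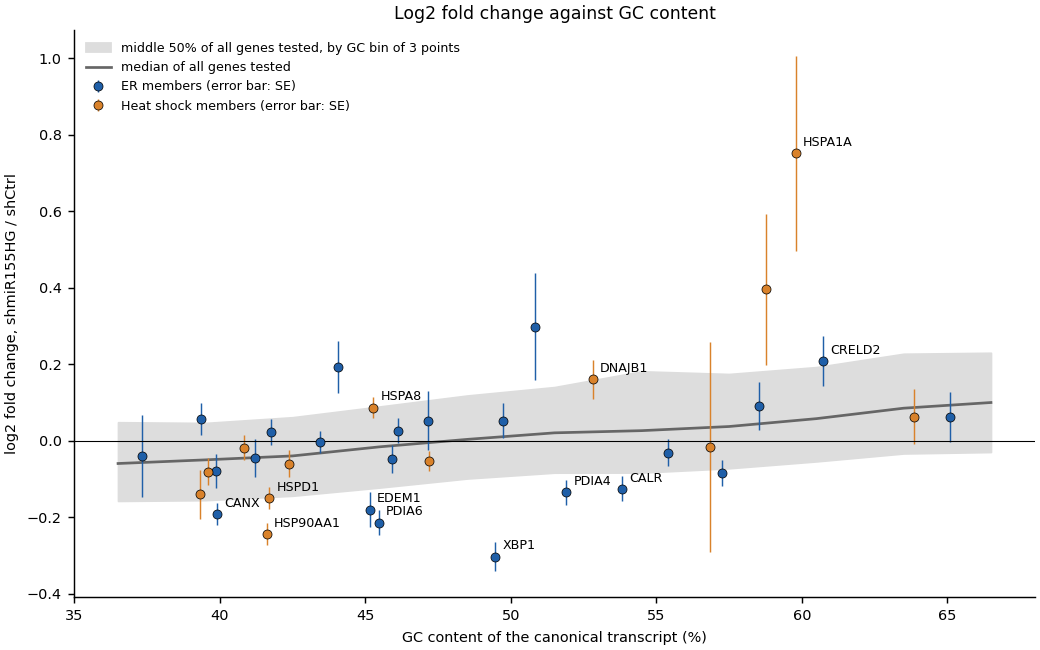
Log2 fold change with its SE against the GC content of the canonical transcript in percent, ER members in blue and heat shock members in orange; the grey line and band are the median and the middle 50% of all genes tested in bins of 3 percentage points. The line climbs from -0.06 at the lowest to 0.1 at the highest bin, and XBP1 and HSP90AA1 lie well below the band while HSPA1A lies above it.

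Other genes of the same pathways were followed in 11 lists with 200 genes, of which 199 were in the table and 191 passed the filter. Of these 191 genes 16 rose (8.38%, against 7.26% of all genes) and 26 fell (13.6%, against 8.02%), with a median log2 fold change of -0.01. The abundant genes that averaged 100 CPM or more had larger shares, at 12.8% higher and 16.4% lower. Of 39 further genes of ER import, folding and glycan trimming, 6 fell (15.4%) and 1 rose (2.56%). The count that fell was 4 after the GC correction and stayed 6 without shCtrl replicate 3. It was 2 without shCtrl replicate 2, and 3 without shCtrl replicate 1, shmiR155HG replicate 1 or shmiR155HG replicate 2. SSR1, a subunit of the translocon-associated complex, fell by 0.19 on the log2 scale, from 282 ± 5.60 to 248 ± 2.38 CPM (SD, n = 3; edgeR adjusted p = 0.00051). DNAJC10, a J protein and disulfide reductase of the ER, had a log2 fold change of -0.20 (adjusted p = 0.001), and PRDX4, an ER peroxiredoxin, of -0.21 (adjusted p = 0.0275). PRDX4 kept its call only without shCtrl replicate 3 among the fits that leave out 1 library, and elsewhere the adjusted p reached 0.212 (-0.14, without shCtrl replicate 1). TXNDC11, a thioredoxin-domain protein, was the gene of this list that rose (0.26, adjusted p = 0.0076), though not without shCtrl replicate 1 (adjusted p = 0.0515).

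Of 27 further genes of ER-associated degradation only 2 passed the test, AUP1 higher (0.17, adjusted p = 0.0309) and UBXN4 lower (-0.17, adjusted p = 0.0144), a share of 3.7% each way that is below that of all genes. After the GC correction neither passed (adjusted p = 0.0983 and 0.0927). AUP1 was also lost without shCtrl replicate 1 or 3 or shmiR155HG replicate 1 or 3 (adjusted p up to 0.15), and UBXN4 without shCtrl replicate 1 or shmiR155HG replicate 3 (adjusted p up to 0.115). Of 14 tested genes of the PERK and ATF4 branch, 2 rose and 2 fell (14.3% each way). Of all genes 7.26% were higher and 8.02% lower, and of the abundant genes 12.8% and 16.4%. ATF4, DDIT3, TRIB3 and ATF3 were among the 10 that did not pass the test (edgeR adjusted p = 0.238, 0.954, 0.926 and 0.876). PPP1R15A, which encodes GADD34 and reverses the phosphorylation of eIF2α, had 14.6, 18.1 and 17.5 CPM in shCtrl and 24.8, 22.4 and 25.4 CPM in shmiR155HG. This is a log2 fold change of 0.53 without overlap (SE 0.11 and adjusted p = 0.00092). ATF5, a stress transcription factor, rose as well (0.26, adjusted p = 0.0145), but not without shCtrl replicate 2 or shmiR155HG replicate 1 or 2 (adjusted p up to 0.0779). EIF2S1, which encodes eIF2α, and EIF2AK2, which encodes the kinase PKR, fell (-0.20 and -0.24, adjusted p = 0.00094 and 0.00025). Among 10 other ER stress regulators, CREB3L2, an ER-anchored transcription factor, fell (-0.49, SE 0.093 and adjusted p = 0.0004).

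In the list of 29 tested HSP70, HSP110 and J protein genes outside the ER, 3 rose and 3 fell, 10.3% each way, which is close to the 7.26% and 8.02% of all genes. HSPA6, an HSP70 that is strictly stress-inducible, had 677, 489 and 651 counts in shCtrl and 1990, 1624 and 1602 counts in shmiR155HG. All 3 shmiR155HG libraries were above 2 times the highest shCtrl library, with a log2 fold change of 1.58 (SE 0.098 and adjusted p = 2.77e-12). At 15.8 ± 2.13 against 47.5 ± 4.61 CPM (SD, n = 3), this rise was larger than that of any member, and HSPA6 can share reads with other HSP70 genes. DNAJB2 and BAG6 rose (0.35 and 0.17), and HSPA9, the mitochondrial HSP70, DNAJC8 and ST13, an HSP70 cofactor, fell (-0.11, -0.15 and -0.17). Each of these 5 calls was lost when certain single libraries were left out. Those libraries were shCtrl replicate 3 or shmiR155HG replicate 2 for DNAJB2 (adjusted p up to 0.137), shCtrl replicate 1 or shmiR155HG replicate 3 for BAG6 (up to 0.0752) and shmiR155HG replicate 3 for ST13 (0.0679). For HSPA9 they were shCtrl replicates 1 and 2 and shmiR155HG replicates 2 and 3 (up to 0.177), and for DNAJC8 shCtrl replicates 1 and 2 and shmiR155HG replicate 2 (up to 0.132). HSPA9 was lost after the GC correction too (0.176).

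Of 15 tested genes in the list of HSP90 co-chaperones, 3 fell (20%) and 0 rose, where 8.02% of all genes and 16.4% of the abundant genes were lower. TRAP1, among those that fell, is itself an HSP90 and not a co-chaperone, so the share for co-chaperones alone is smaller. PTGES3, which encodes p23, had a log2 fold change of -0.32 (adjusted p = 2.01e-07). PTGES3 stood at 468, 438 and 434 CPM in shCtrl and at 363, 355 and 359 CPM in shmiR155HG, well apart. TRAP1, the mitochondrial HSP90, had -0.12 (adjusted p = 0.0217), and was lost without shCtrl replicate 3 or any shmiR155HG replicate (adjusted p up to 0.112). FKBP4 had -0.11 at an adjusted p of 0.0485 and lost its call under 11 of 18 alternatives, among them every fit that left out 1 library except shCtrl replicate 1 (adjusted p up to 0.245). Of 14 genes of the TRiC chaperonin and prefoldin, which fold actin and tubulin, 5 fell (35.7%, against the same 8.02% and 16.4%) and 0 rose. TCP1 had 490 ± 2.59 against 430 ± 2.40 CPM (SD, n = 3) and a log2 fold change of -0.19 (edgeR adjusted p = 0.0001), and CCT4 and CCT7 had -0.18 and -0.17. In neither the HSP90 co-chaperones nor this list did a gene rise at an unadjusted p under 0.05 or with DESeq2 or limma-voom. None of 8 tested small heat shock proteins and heat shock regulators passed the edgeR test (1 lower at an unadjusted p under 0.05), and none of 10 genes of mitochondrial proteostasis did (2 higher and 1 lower at an unadjusted p under 0.05). DESeq2 and limma-voom called 0 genes in either of these lists.

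Immediate early genes, which respond within minutes to cell handling and signalling as well as to stress, rose in 5 of 11 tested genes (45.5%, against 7.26% of all genes) with 0 lower, also at an unadjusted p under 0.05 and with DESeq2 and limma-voom, and had a median log2 fold change of 0.33. EGR2 had 68, 95 and 53 counts against 257, 255 and 207 (log2 fold change 1.78, adjusted p = 7.47e-06), EGR1 had a log2 fold change of 0.90 (adjusted p = 6.63e-06), and FOSB, at 21 to 115 counts per library, of 1.18 (adjusted p = 0.0288). FOSB kept its call only without shCtrl replicate 2 among the fits that left out 1 library, with values of 0.80 to 1.60 and adjusted p up to 0.125. Any gene called higher rose in these same shmiR155HG libraries, so a rise shared with HSPA6, HSPA1A and DNAJB1 does not link the genes. The part of immediate early genes in the heat shock results was not tested.

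Transcripts of client proteins of the ER and of its antigen loading machinery moved both ways in these cells. Of 14 genes of antigen loading and granule cargo, 4 rose (28.6%) and 5 fell (35.7%). Of all genes 7.26% were higher and 8.02% lower, and of the abundant genes 12.8% and 16.4%. HLA-B, HLA-C and TAP1, which serve antigen presentation, rose by log2 fold changes of 0.23, 0.23 and 0.13 (edgeR adjusted p = 8.88e-07, 2.80e-06 and 0.0099). TAP1 missed the threshold after the GC correction (adjusted p = 0.0561). GZMB, the main granule protease, had 1244, 1165 and 1177 CPM in shCtrl and 546, 511 and 571 CPM in shmiR155HG. That is a log2 fold change of -1.14 (SE 0.036 and adjusted p = 7.03e-19). GZMH, a related protease, and SRGN, the proteoglycan that packs them, fell with log2 fold changes of -0.62 and -0.28 (adjusted p = 1.03e-08 and 0.00067).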

How the data were processed

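RNA-seq of 6 NK-92 libraries was used as gene counts that the authors deposited. Per the labels and the study's methods, poly(A) RNA was sequenced in pairs, aligned with HISAT2 to hg38 and quantified with StringTie, and counts were extracted with its script. The annotation release, strand setting and read length given to that script are not given in the sources used here. Such counts are derived from coverage and can exceed whole fragments.

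Differential expression was tested with edgeR 4.0.16 (robust quasi-likelihood test, TMM scaling, R 4.3.3) on the 12263 genes above 1 CPM in 2 libraries or more, without covariates. Genes with a Benjamini-Hochberg adjusted p under 0.05 over all genes tested were called. The common biological coefficient of variation was 8.71%, and total counts of 33454786 to 39157264 limit counting error mainly for genes of few counts such as HSPA1A. Transcript length and GC content came from GENCODE release 44 and promoters from RefSeq. DESeq2 1.42.0, limma 3.58.1 and other scalings, filters and a replicate block were alternatives. Members and lists were chosen with earlier results of these data known. Named besides the 36 members and MIR155HG were, per wider list, at most 3 genes with the largest rise and 3 with the largest fall among those called without overlap. ATF4, DDIT3, TRIB3 and ATF3, which were not called, were named in addition after seeing the data.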

Additional observations from a re-analysis of the deposited data

How the results depend on the processing

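No member that passed the test changed direction under any of the 18 alternatives: 179 of these values kept their call and 36 lost it. XBP1 kept its call under every alternative. HSPA1A and BAG3 could not be tested at a mean of at least 5 CPM. By the rule of the study as applied here, the counts were 551 higher and 466 lower over all genes. Both are below the counts that the paper reports, and the reason was not tested. There were 0 higher and 1 lower among ER members, 1 higher and 0 lower among heat shock members, and 10 higher and 6 lower in the wider lists. That rule changes the test, the threshold on p and the threshold on fold change together. Which of them lowered the counts relative to the main test was not tested. ER members called higher numbered 2 with no filter and 2 with a mean of at least 5 CPM, both with EIF2AK3. With the replicate block, 1 heat shock member was called higher, DNAJB1. Same-numbered libraries did not deviate together over the genes tested (correlations of -0.01, 0.01 and 0.02). Such values cannot exclude something shared that touches only some genes, and the labels do not say what the numbers stand for.

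Leaving out each library in turn gave 580 to 891 genes higher and 674 to 917 lower, 0 to 2 ER members higher and 5 to 6 lower, and 0 to 2 heat shock members higher and 2 to 3 lower. The lowest count over all genes, 580, came without shmiR155HG replicate 2. No ER member was called higher without shCtrl replicate 2 or shmiR155HG replicate 2 or 3, and 2 were without shCtrl replicate 3. No heat shock member was called higher without shCtrl replicate 2 or shmiR155HG replicate 1, and 1 was without shCtrl replicate 1 or shmiR155HG replicate 2 or 3.

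Some members that were not called changed sign near 0. With the correction for GC content, chosen after seeing the data, the log2 fold change was 0.0189 for DNAJB9, -0.0176 for SDF2L1, 0.0306 for PDIA3, -0.00787 for HSF1 and 0.0288 for DNAJA1, and at a mean of at least 5 CPM it was 0.00035 for PDIA3. Leave-one-out ranges that crossed 0 were -0.012 to 0.0645 for HSPA5, -0.0635 to 0.00145 for HYOU1, -0.011 to 0.0656 for HSP90B1, -0.117 to 0.102 for DNAJB9, -0.0179 to 0.00612 for PDIA3, -0.00031 to 0.106 for HERPUD1, -0.00797 to 0.128 for HSF1, -0.0312 to 0.00515 for DNAJA1 and -0.254 to 0.263 for BAG3. The causes were not tested. Depth limits HSPA1A, HSPA1B, BAG3 and ERN1 most.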
